A study of Mus musculus with 6 samples.

Results

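The IL-12 family is made by 5 subunit genes, Il12a (p35), Il12b (p40), Il23a (p19), Il27 (p28) and Ebi3, and these were chosen by name among the 15415 genes measured. Their mRNA was read in primary peritoneal macrophages (PEMs) of C57BL/6J mice, with 3 knockout libraries (LysM-Cre; Tim-4 fl/fl) and 3 control libraries from Tim-4 fl/fl littermates. Tim-4, encoded by Timd4, is a phosphatidylserine receptor of macrophages. The study's methods describe young adult male mice and cells drawn after an injection of starch into the peritoneum. LPS is the labelled treatment of every sample, and the labels give no dose or time. The methods give a dose and a time of LPS for activating PEMs, but do not tie them to this sequencing. Libraries were grouped by their titles, because the labelled genotypes run opposite to the titles. LysM-Cre deletes in cells of the myeloid lineage, where it also replaces a lysozyme allele, and the controls carry the floxed alleles with no Cre, so loss of Tim-4 and presence of the Cre allele cannot be told apart. No source says that the 3 libraries of a group came from separate mice, and p-values then measure only the spread between these libraries. In bulk RNA, fewer cells of a type and less RNA per cell cannot be told apart.

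IL-12 family cytokines are secreted as pairs of an alpha chain, which folds as a helix bundle, and a beta chain, which resembles a soluble cytokine receptor. IL-12 joins p35 to p40, IL-23 joins p19 to p40, IL-27 joins p28 to EBI3, and IL-35 joins p35 to EBI3, so that each beta chain serves several cytokines. Macrophages and dendritic cells make them when Toll-like receptors are engaged. IL-12 drives interferon-gamma production by T and NK cells, IL-23 maintains IL-17-producing T cells, and IL-27 both promotes and restrains T cell responses.

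Before the values of the family, several libraries stood apart. Recovered reads numbered 36170767 to 42217558 per library. Timd4 measured 0.333, 0.394 and 0.246 FPKM (reads scaled by gene length and by the counted reads of the library) in knockout libraries 1 to 3 and 19.5, 12.1 and 1.19 FPKM in control libraries 1 to 3, so control library 3 was low. Lyz2, the lysozyme gene of the Cre allele, lay at 41.4, 4656 and 106 FPKM in the knockout and at 7090, 7171 and 8482 FPKM in the control, so knockout library 2 remained high. The deleted region runs from intron 1 to intron 3, and reads from other exons can remain. The other 7 of 8 macrophage markers were present in all 6 libraries, and 1 of the 8 passed the test, beside 7.31% of all genes. Adgre1 (F4/80) lay at 235 to 364 FPKM in the knockout and 310 to 329 FPKM in the control. Fcgr1, an Fc receptor that interferon induces, rose, at 36.1 to 57.5 FPKM in the knockout against 5.16 to 6.58 FPKM in the control (log2 fold change 2.82, adjusted p = 0.0015 in limma). Csf1r (-0.71, adjusted p = 0.0903) and Cd14 (-0.73, adjusted p = 0.0631) had lower values in the knockout in all 3 pairs of the same number, and Cd68 (0.62, adjusted p = 0.0989) higher values. Without knockout library 3 Csf1r passed (adjusted p = 0.0243 in limma). Without control library 3 Cd14 (adjusted p = 0.0388), Cd68 (0.0212) and Timd4 (0.000405) passed. Of these, Cd14 (0.0957) and Cd68 (0.0837) did not pass without knockout library 2 as well. Leaving out knockout library 2 alone, Lyz2 passed (from 0.103 to 0.00555). The 2 libraries had stood out by these same Timd4 and Lyz2 values, so the calls of Timd4 and Lyz2 are no independent result. Timd4 had also reached the filter through the controls alone. Values of the family are given with and without control library 3 and knockout library 2 where these decided a call.

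The family's promoters are shown because Il12b and Ebi3 are textbook targets of NF-kappaB and PU.1 in activated myeloid cells. RefSeq windows from 250 bases before to 50 bases after the transcription start (build GRCm38.p6, plus strand) were found for Il12a, Il12b and Ebi3. Both strands were searched for GGGNNTTCC (a form of the NF-kappaB motif), GAAANNGAA (the core bound by interferon regulatory factors), TTNNGCAA (a C/EBP form) and GAGGAA (the PU.1 core), and no printed matches overlap. In the lines, 5′ to 3′, capitals mark the match.
Il12b, PU.1 core on the plus strand, bases -143 to -138 from the start, chr11:44399908-44399937: aagggggggaggGAGGAActtcttaaaatt
Il12b, PU.1 core on the minus strand, bases -219 to -214 from the start, chr11:44399832-44399861: ccccgaagtcatTTCCTCttaacctgggat
Ebi3, NF-kappaB form on the plus strand, bases -44 to -36 from the start, chr17:55952569-55952598: gccccttcctGGGGCTTCCccgttggccat
Ebi3, PU.1 core on the plus strand, bases -176 to -171 from the start, chr17:55952435-55952464: tgtaagtggtgaGAGGAAcactacccagtt
Of all 32851 promoter windows of this length, 5.8% held the NF-kappaB form, 8.6% the interferon regulatory core, 10.8% the C/EBP form and 28.3% the PU.1 core. The PU.1 core is thus common in promoters, and the NF-kappaB form in Ebi3 is less so. In the Il12b window only the PU.1 core was found, in the Ebi3 window the PU.1 core and the NF-kappaB form, and in the windows of the 2 Il12a starts none of the 4 motifs, which says only that the other letters are not there. A match is a description of the sequence and not a bound site.

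On the FPKM scale, which allows levels to be compared between genes, Il12b stood highest and Il23a lowest. In knockout libraries 1 and 2 and control libraries 1 and 2 the order was Il12b, Il27, Il12a, Ebi3, Il23a. In knockout library 3 Il12a stood above Il27, and in control library 3 it stood above both Il27 and Il12b. Ebi3 was next to last and Il23a last in all 6 libraries. Il12b ranked within the top 1.43% to 5.25% of the 15415 genes, whereas Il23a ranked at 41.0% to 52.8%. The cells thus held abundant mRNA for p40, p28 and p35, less for EBI3, and little for p19, the chain that makes IL-23.

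Among the beta chains, Il12b (Entrez gene 16160), the p40 shared by IL-12 and IL-23, measured 302, 267 and 122.9 FPKM in knockout libraries 1 to 3 and 146, 135 and 76.0 FPKM in control libraries 1 to 3. The third library was the lowest of each group, and knockout library 3 lay below control libraries 1 and 2, so the groups overlapped. Means were 230.5 ± 94.8 FPKM (SD, n = 3) in the knockout and 119.0 ± 37.6 FPKM (SD, n = 3) in the control, a ratio of 1.94. The log2 fold change was 0.90 (SE 0.386, 95% interval -0.0032 to 1.81, adjusted p = 0.182 in limma), and the two-sided exact permutation p was 0.3. Between libraries of the same number the ratio was 2.07, 1.97 and 1.62, higher in the knockout each time. With the replicate number as a block, Il12b rose (log2 fold change 0.90, SE 0.144, adjusted p = 0.0243 in limma). Reads on the gene numbered 6888 to 31805 per library.

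Ebi3 (50498), the beta chain of IL-27 and IL-35, measured 30.7, 24.5 and 29.7 FPKM in knockout libraries 1 to 3 and 20.1, 20.3 and 38.0 FPKM in control libraries 1 to 3. All knockout libraries exceeded control libraries 1 and 2, and control library 3 exceeded every knockout library. Means were 28.3 ± 3.29 FPKM (SD, n = 3) in the knockout and 26.1 ± 10.3 FPKM (SD, n = 3) in the control, and the log2 fold change was 0.17 (SE 0.253, 95% interval -0.43 to 0.76, adjusted p = 0.698 in limma). The exact permutation p was 0.8. Ebi3 and Il12b, the 2 beta chains, therefore had their extreme control values in the same library but on opposite sides. In control library 3, Il12b was at its lowest and Ebi3 at its highest.

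Among the alpha chains, Il27 (246779), which encodes the p28 of IL-27, measured 153, 162 and 83.6 FPKM in knockout libraries 1 to 3 and 106, 77.5 and 42.4 FPKM in control libraries 1 to 3. As for Il12b, the third library was the lowest of each group, and control library 1 exceeded knockout library 3. Means were 133 ± 42.9 FPKM (SD, n = 3) in the knockout and 75.2 ± 31.7 FPKM (SD, n = 3) in the control, a ratio of 1.77. The log2 fold change was 0.85 (SE 0.377, 95% interval -0.03 to 1.74, adjusted p = 0.195 in limma, exact permutation p = 0.2). Libraries of the same number gave ratios of 1.45, 2.09 and 1.97, and with the block Il27 rose (SE 0.159, adjusted p = 0.033 in limma).

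Il12a (16159), the p35 that completes IL-12, measured 120, 68.2 and 88.0 FPKM in knockout libraries 1 to 3 and 48.7, 42.7 and 80.5 FPKM in control libraries 1 to 3. All knockout libraries lay above control libraries 1 and 2, while control library 3 exceeded knockout library 2. Means were 92.1 ± 26.2 FPKM (SD, n = 3) in the knockout and 57.3 ± 20.3 FPKM (SD, n = 3) in the control, a ratio of 1.61. The log2 fold change was 0.69 (SE 0.288, 95% interval 0.02 to 1.37, adjusted p = 0.173 in limma, exact permutation p = 0.2), and with the block the adjusted p was 0.117. Ratios between libraries of the same number were 2.46, 1.599 and 1.09. Without control library 3, in which Timd4 was low, Il12a rose (log2 fold change 0.96, SE 0.234, adjusted p = 0.0388 in limma), where 14.8% of all 9006 genes tested passed. Without control library 3 and knockout library 2 the log2 fold change was 1.16 (SE 0.203, adjusted p = 0.0333 in limma), where 5.8% of 8997 genes passed. For Il12a these were the highest control library and the lowest knockout library, so leaving them out separates the groups by itself.

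Il23a (83430), the p19 that makes IL-23 with p40, measured 2.94, 2.37 and 2.88 FPKM in knockout libraries 1 to 3 and 2.67, 2.66 and 1.55 FPKM in control libraries 1 to 3. Knockout library 2 lay below control libraries 1 and 2, so the groups overlapped. Means were 2.73 ± 0.313 FPKM (SD, n = 3) in the knockout and 2.29 ± 0.646 FPKM (SD, n = 3) in the control, and the log2 fold change was 0.20 (SE 0.178, 95% interval -0.22 to 0.61, adjusted p = 0.501 in limma, exact permutation p = 0.5). The gene rested on 76 to 168 reads per library, far fewer than the other members. The addition of 1 FPKM before the logarithm also understates its change.

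**Figure D1:**
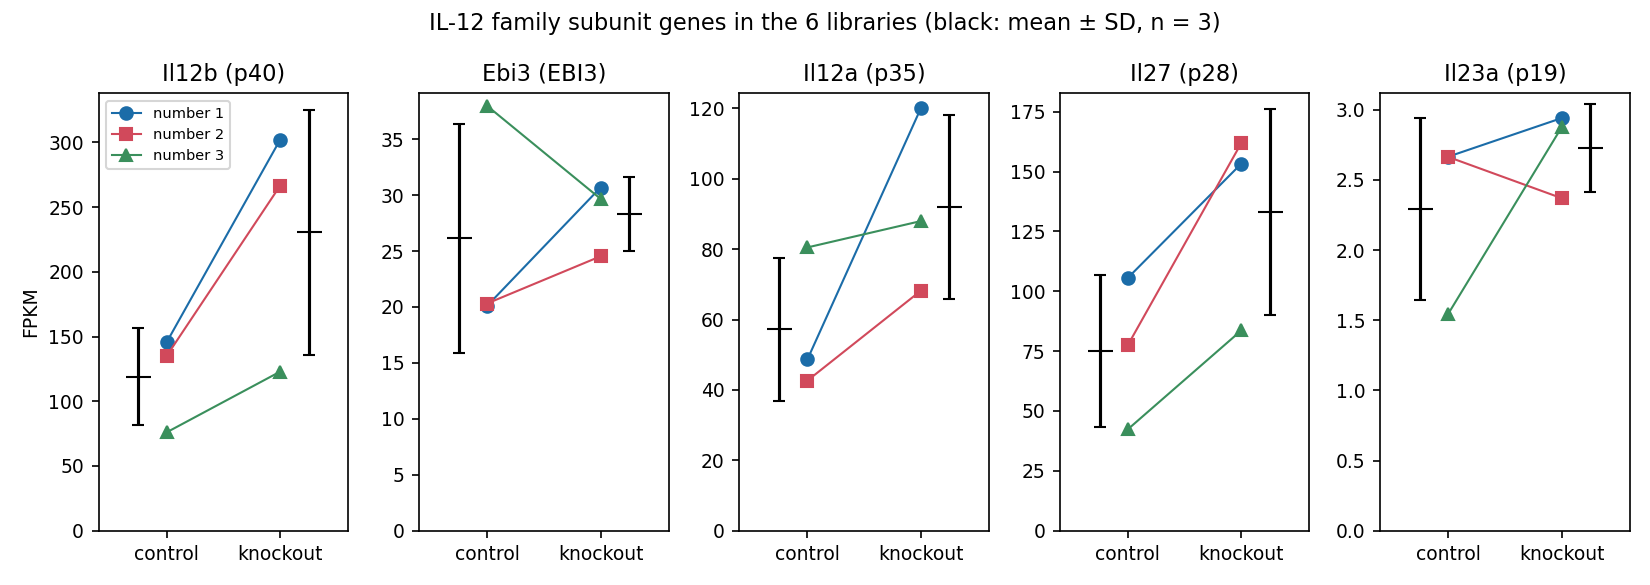
FPKM (linear axes from 0, a panel per gene) of the 5 IL-12 family genes in 3 control and 3 knockout libraries, with lines joining libraries of the same number and black bars for the mean ± SD (n = 3). Il12b, Il27 and Il12a have means of 230.5, 133 and 92.1 FPKM in the knockout against 119.0, 75.2 and 57.3 FPKM in the control, with overlapping libraries.

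Over the family, all 5 genes had a higher mean in the knockout and 0 of 5 passed an adjusted p of 0.05, against 7.31% of the 9030 genes tested, which were those with a mean of at least 1 FPKM in a group. At an unadjusted p under 0.05 in limma 1 of 5 passed, namely Il12a, against 27.6% of all genes, and with voom on recovered reads 0 of 5 passed an adjusted p of 0.05. The median log2 fold change of the family was 0.69, beside -0.11 over all genes tested. With the block, 2 of 5 passed, both higher in the knockout, against 9.47% of all genes called in either direction and 3.9% called higher. In 0 of 5 were the groups separate, against 34.1% of all genes, while 3 of 5 were higher in the knockout between all libraries of the same number, against 18.0% of all genes. These 3 genes, Il12b, Il27 and Il12a, encode p40, p28 and p35, and the other 2 encode EBI3 and p19. The block removes differences that libraries of the same number share. It assumes that the numbers pair the libraries, which no source states and the data did not decide.

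**Figure D2:**
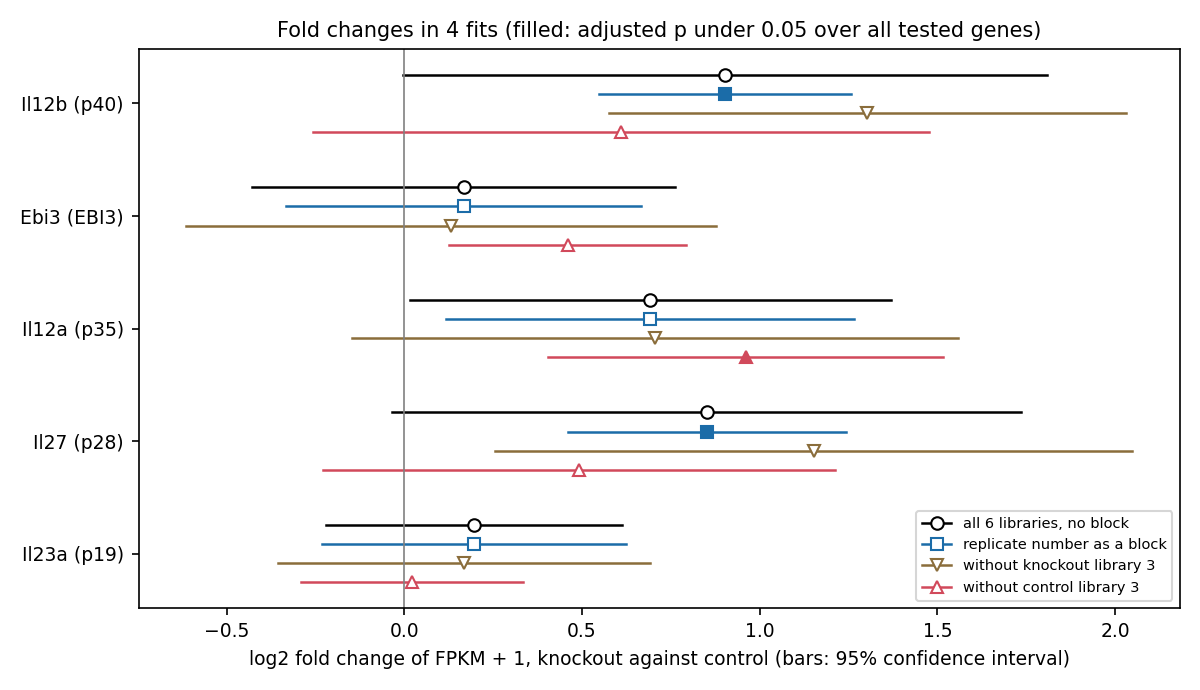
Log2 fold change of FPKM + 1 (knockout against control) of the 5 genes with 95% intervals from limma, for all 6 libraries, with the replicate block, without knockout library 3, and without control library 3. Filled symbols mark an adjusted p under 0.05. Il12b and Il27 are filled only with the block, and Il12a only without control library 3.

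Removing control library 3 moved the genes in opposite directions. The log2 fold change of Il12a went from 0.69 to 0.96 and that of Ebi3 from 0.17 to 0.46 (adjusted p = 0.0722 in limma), while that of Il12b went from 0.90 to 0.61 (adjusted p = 0.298), that of Il27 from 0.85 to 0.49 (adjusted p = 0.313) and that of Il23a from 0.20 to 0.02. Without knockout library 3 instead, Il12b stood at 1.30 (adjusted p = 0.062) and Il27 at 1.15 (adjusted p = 0.123). There Il12a stood at 0.71, Ebi3 at 0.13 and Il23a at 0.17, close to their values over all 6 libraries. Without both knockout library 2 and control library 3, Il12b stood at 0.46 (adjusted p = 0.561 in limma) and Il27 at 0.32 (adjusted p = 0.606). In that fit Il12a stood at 1.16, Ebi3 at 0.56 and Il23a at 0.09.

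The members were also compared with each other over the 6 libraries. Il12b and Il27 correlated at r = 0.967 on the log2 scale, and at 0.941 once each group's mean was removed. Il12a and Ebi3, which pair as IL-35, correlated at r = 0.801, and at 0.891 without the group means. Il27 and Ebi3, which pair as IL-27, correlated at -0.403, and at -0.791 without the group means. Il12a and Il12b, which pair as IL-12, correlated at 0.288, and at -0.330 without the group means. These values describe 6 libraries that share the groups, the depth and the sets in which the third libraries stood apart.

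Ratios of 2 subunits within a library compare the mRNA for the chains of a cytokine and do not depend on the scaling of the library. The ratio of Il12b to Il12a, the chains of IL-12, was 2.52, 3.91 and 1.40 in the knockout libraries and 2.99, 3.17 and 0.944 in the controls. Control library 3 was the only library with less Il12b than Il12a. The difference of the log2 ratio between the groups was 0.21 (exact permutation p = 0.7). The ratio of Ebi3 to Il27, the chains of IL-27, was 0.200, 0.152 and 0.355 in the knockout and 0.190, 0.262 and 0.897 in the control, a difference of -0.69 (exact permutation p = 0.6). EBI3 mRNA was thus the scarcer of these chains in every library. The ratio of Il12b to Il23a, the chains of IL-23, was 103, 113 and 42.7 in the knockout and 54.7, 50.7 and 49.2 in the control, a difference of 0.62 (exact permutation p = 0.4).

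The ratio of Ebi3 to Il12a, the chains of IL-35, was 0.255, 0.360 and 0.337 in the knockout libraries and 0.412, 0.476 and 0.472 in the controls. It was the only 1 of the 7 ratios whose groups did not overlap, lower in the knockout by -0.53 on the log2 scale. Its exact permutation p was 0.1, the smallest that 3 libraries against 3 allow, and 0.7 after adjustment over the 7 ratios, where the other 6 stood at 0.8. The alpha chains compared with each other did not separate, with Il27 to Il12a at 1.28, 2.37 and 0.9504 in the knockout and at 2.17, 1.82 and 0.526 in the control (difference 0.16, exact permutation p = 0.8). The beta chains, Il12b to Ebi3, stood at 9.85, 10.9 and 4.14 in the knockout and at 7.25, 6.66 and 2.001 in the control (difference 0.73, exact permutation p = 0.5), higher in the knockout between all 3 libraries of the same number. Il23a to Il12a, the rival partners of p40, stood at 0.0245, 0.0348 and 0.0327 in the knockout and at 0.0547, 0.0624 and 0.0192 in the control (difference -0.41, exact permutation p = 0.5).

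**Figure D3:**
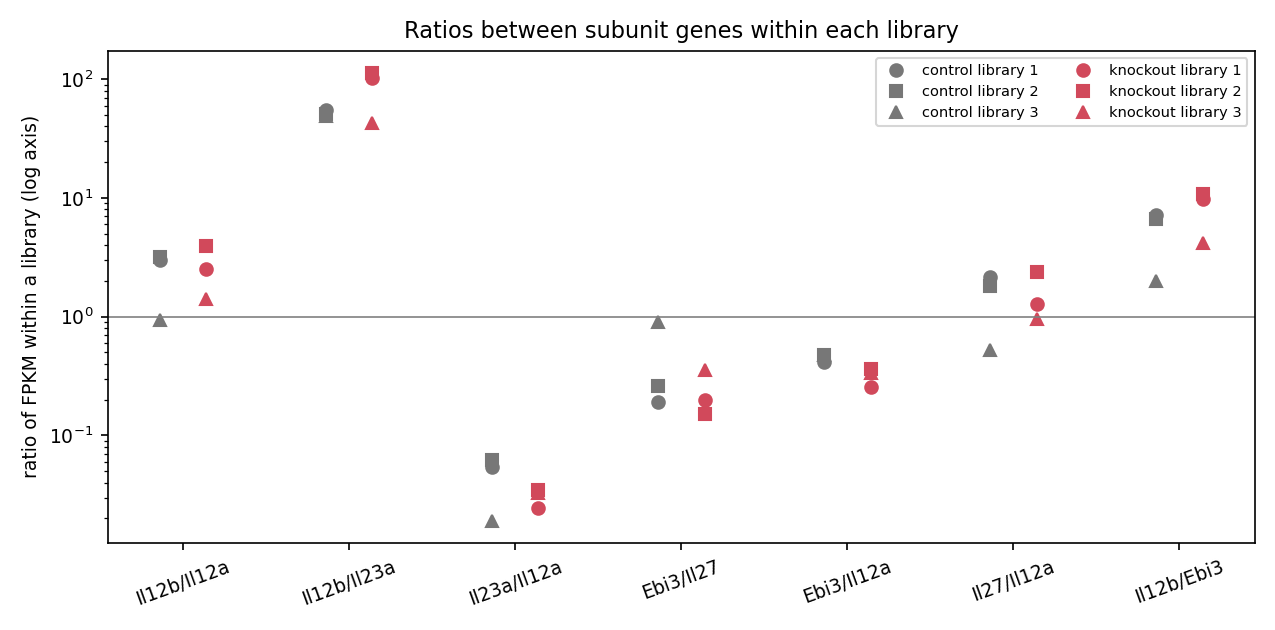
Ratio of the FPKM of 2 subunit genes within each library (log axis), for the 7 pairs, in 3 knockout and 3 control libraries. Only Ebi3 to Il12a separates the groups, at 0.255 to 0.360 in the knockout and 0.412 to 0.476 in the control.

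The genes whose pattern over the 6 libraries was most like each member, among 5460 genes with a mean of at least 5 FPKM, differed from member to member. For Il12b they were Rel (r = 0.993), which encodes the NF-kappaB subunit c-Rel, Tnfsf15 (0.992) and Dram1 (0.992). For Il27 they were Apobec3 (0.996), Pik3cd (0.995) and Axl (0.994), and 110 genes exceeded r = 0.95. For Il12a they were Poldip3 (0.983), Tnfrsf1b (0.9748) and Rexo4 (0.973), and for Ebi3 Zhx2 (0.999), Vps35l (0.994) and Lcp1 (0.991). For Il23a they were Ppp1r12a (0.991), Crkl (0.948) and Arf5 (0.947). With 6 libraries and this many genes, high correlations occur for every member, and they are given as a description.

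Apart from Il6st, the receptors of the family were low in these cells. Of 5 receptor genes 2 passed the filter, and neither passed the test in limma, also at an unadjusted p under 0.05 or with voom (median log2 fold change -0.06). Il6st, which encodes gp130, the signalling chain of the IL-27 receptor, lay at 7.17, 7.08 and 6.21 FPKM in the knockout and at 5.595, 5.48 and 8.06 FPKM in the control (log2 fold change 0.10, adjusted p = 0.725 in limma). Il27ra, the chain particular to the IL-27 receptor, lay at 0.625, 0.663 and 1.01 FPKM in the knockout and at 1.67, 1.36 and 0.348 FPKM in the control (log2 fold change -0.21, adjusted p = 0.620). It had reached the filter through the controls alone, and without control library 3 its log2 fold change was -0.51 (adjusted p = 0.0626). Il12rb1, the chain shared by the IL-12 and IL-23 receptors, lay at 0.0961 to 0.123 FPKM in the knockout and 0.165 to 0.198 FPKM in the control. Il12rb2, the signalling chain for IL-12, lay at 0.0323 to 0.123 and 0.0555 to 0.0913 FPKM, and Il23r, that for IL-23, at 0.0765 to 0.177 and 0.0667 to 0.407 FPKM. These 3 were below the filter and were not tested.

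Behind the receptors, 0 of 5 signal transducers (Jak1, Jak2, Tyk2, Stat3 and Stat4) passed the test in limma, 0 also at an unadjusted p under 0.05 and 0 with voom, and the median log2 fold change was 0.06. Of these Stat4 had reached the filter through the controls alone. Of the other partners in the wider IL-6 superfamily, 4 of 5 listed genes were tested and 0 passed in limma or voom, 2 at an unadjusted p under 0.05 (27.6% of all genes), with a median of -0.42. Of these Il6ra reached the filter through the controls alone. The products of the T and NK cells that answer these cytokines were near the limit of the data. Ifng, the product driven by IL-12, lay at 0.275, 0.235 and 0.162 FPKM in the knockout and at 0.796, 0.679 and 0.0685 FPKM in the control, below the filter. Of the 7 products listed 1, Gzmb, was tested, and it passed neither in limma (log2 fold change -0.75, adjusted p = 0.212) nor in voom. Without control library 3 it fell (log2 fold change -1.16, adjusted p = 0.0088 in limma), but it reached the filter through the controls alone. The summed T and NK cell markers lay at 0.858 to 1.57 FPKM in the knockout and 0.996 to 3.29 FPKM in the control. Of the controls the sum was lowest in library 3, where Ifng was lowest too. Most of the knockout sum was Lck, at 0.923, 1.34 and 0.693 FPKM, against 1.70, 1.03 and 0.657 FPKM in the control. Between all libraries of the same number Cd3d, Cd3e, Cd3g and Cd4 were lower in the knockout, and Lck, Cd8a and Klrb1c were not. All of these but Lck were below the filter. The part of T and NK cells in the level of Ifng was not tested.

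Of 25 transcription factor genes that act on the family in activated macrophages, 23 were tested, of which 3 rose and 1 fell, beside 7.31% of all genes (median log2 fold change 0.17). Irf1, an interferon regulatory factor known to act on Il12a, Il12b and Il27, lay at 187, 180 and 162 FPKM in the knockout and at 75.3, 65.6 and 76.7 FPKM in the control. The groups were far apart, with a log2 fold change of 1.27 (SE 0.128, adjusted p = 0.00651 in limma). Irf5, which acts on Il12b and Il23a in inflammatory macrophages, rose by 0.78 (adjusted p = 0.0297), at 33.3 to 41.1 FPKM against 19.1 to 24.9 FPKM. Stat2, a transducer of type I interferon signals, rose by 1.26 (adjusted p = 0.0384). Irf4, which competes with Irf5 for MyD88, lay at 1.62, 0.722 and 0.658 FPKM in the knockout and at 6.84, 5.11 and 2.96 FPKM in the control, and its log2 fold change was -1.55 (adjusted p = 0.0263), a fall. With 1 library left out, the adjusted p ran from 0.00228 to 0.0549 for Irf1, from 0.0263 to 0.15 for Irf5, from 0.0195 to 0.152 for Stat2 and from 0.00525 to 0.127 for Irf4. Irf1 did not pass without knockout library 1 or without control library 2, and Irf5 did not without either of these or knockout library 2. Stat2 and Irf4 did not pass without any 1 of the knockout libraries or without control library 2. With voom, Stat2 (0.0562) and Irf4 (0.0519) did not pass, and without both knockout library 2 and control library 3 Irf5 (0.104) and Stat2 (0.0681) did not.

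Irf1 was therefore separate between the groups in all 6 libraries, unlike the family genes themselves. Irf8, which acts with Irf1 on Il12b, lay at 22.5, 28.9 and 15.8 FPKM in the knockout and at 14.2, 14.2 and 18.0 FPKM in the control (log2 fold change 0.48, adjusted p = 0.213). For Rel the log2 fold change was 0.22 (adjusted p = 0.362), at 27.1 to 34.7 FPKM against 24.6 to 29.3 FPKM. With the block Maf, which restrains Il12b and favours Il10, passed as well (1.28, adjusted p = 0.0492 in limma), as it did at 0.75 without control library 3 (adjusted p = 0.0386) but not at 0.61 without knockout library 2 as well (adjusted p = 0.116). Irf4 is also a gene of B cells, whose markers were lower in the knockout.

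Of 11 genes that restrain the family, all tested, 10 had a higher mean in the knockout and 1 rose, beside 7.31% of all genes called in either direction (median log2 fold change 0.64). Nfkbia, the inhibitor of NF-kappaB that NF-kappaB itself induces, lay at 469, 379 and 327 FPKM in the knockout and at 249, 211 and 185 FPKM in the control (log2 fold change 0.86, adjusted p = 0.0355 in limma). With 1 library left out its adjusted p ran from 0.0371 to 0.147, and it did not pass without knockout library 1 or 2 or control library 2. The adjusted p was 0.114 without both knockout library 2 and control library 3 and 0.0545 with voom, which called 0 of the 11. With the block Socs3 (1.37, adjusted p = 0.0219) and Zfp36 (1.15, adjusted p = 0.0208), a protein that speeds decay of cytokine mRNA, passed as well. Without control library 3 and without the block, Socs3 stood at 0.80 (adjusted p = 0.153) and Zfp36 at 0.92 (adjusted p = 0.111). Il10, the cytokine that holds down p40 and p35, lay at 21.4, 12.99 and 7.20 FPKM in the knockout and at 10.6, 7.73 and 5.65 FPKM in the control (log2 fold change 0.64, adjusted p = 0.301, and 0.0649 with the block). Its log2 fold change ran from 0.29 to 1.01 with 1 library left out. Like Il12b and Il27, Il10 was lowest in the third library of each group and higher in the knockout between all 3 libraries of the same number.

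Of 10 other LPS-induced genes, 6 had a higher mean in the knockout and 1 rose, beside the same 7.31% (median log2 fold change 0.44). Il15, a cytokine of NK and memory T cells, lay at 51.5, 59.0 and 34.4 FPKM in the knockout and at 16.3, 17.0 and 10.8 FPKM in the control (log2 fold change 1.64, adjusted p = 0.0154 in limma). With 1 library left out its adjusted p ran from 0.00942 to 0.0878, and it did not pass without knockout library 1 or 2 or control library 2. With the block Cxcl10 (1.67, adjusted p = 0.029) and Nos2 (1.96, adjusted p = 0.0165) passed as well, and without control library 3 they passed at 0.99 (adjusted p = 0.033) and 1.43 (adjusted p = 0.0499). Without knockout library 2 as well, neither passed (0.87, adjusted p = 0.11, and 1.15, adjusted p = 0.125).

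**Figure D4:**
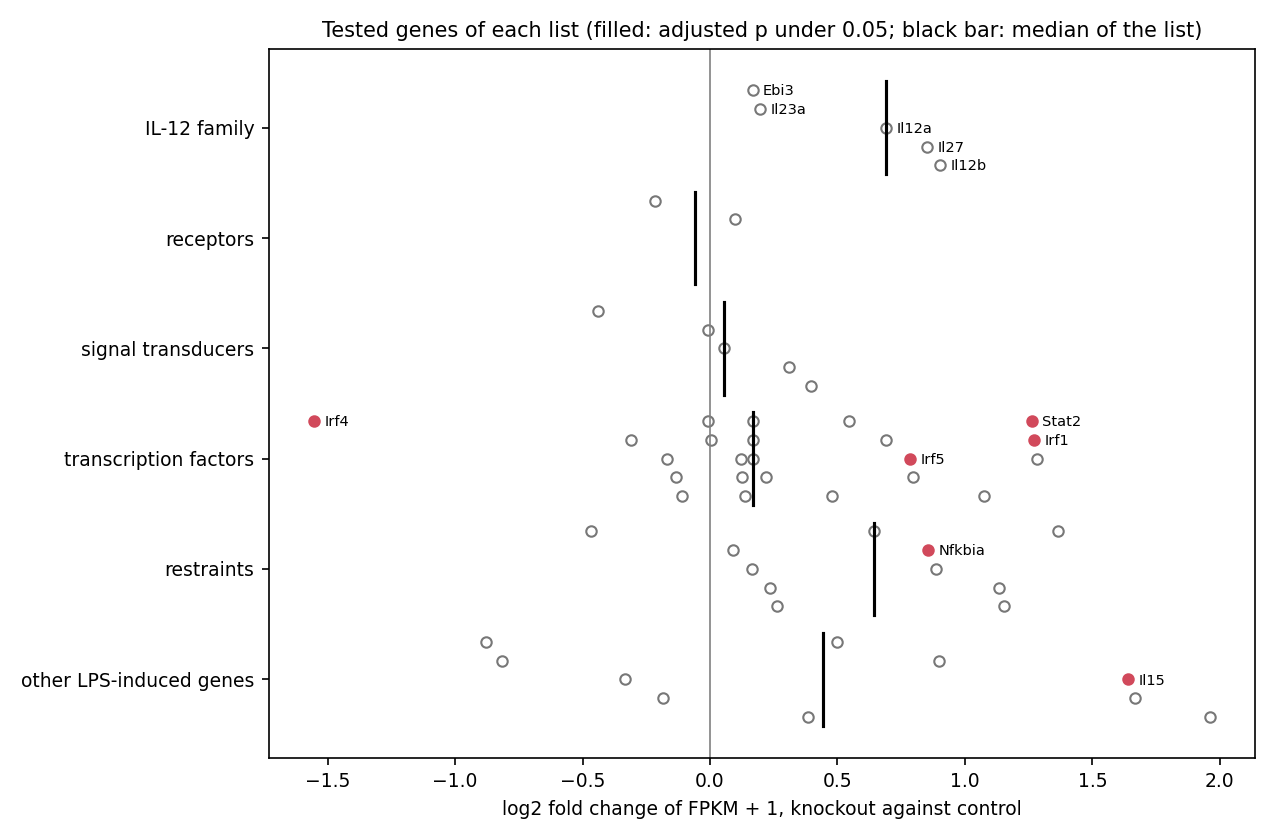
Log2 fold change of FPKM + 1 (knockout against control) of the tested genes in 6 lists, with the median of each list as a bar. Filled points passed an adjusted p of 0.05 in limma. Among the lists drawn the medians run from -0.06 for the receptors to 0.69 for the IL-12 family (the IL-6 superfamily partners, at -0.42, and the T and NK cell products, at -0.75, are not drawn), and Irf1, Irf5, Stat2, Irf4, Nfkbia and Il15 are filled.

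Marker genes of other cells are given by their summed level and by what carried each sum. The sum of the 8 macrophage markers separated the groups, at 2682 to 7277 FPKM in the knockout and 9365 to 11150 FPKM in the control, and without Lyz2 it overlapped, at 2621 to 2876 FPKM against 2194 to 2665 FPKM. Dendritic cells also make these cytokines. Of their 10 markers Flt3 lay at 0.0936 to 0.373 FPKM and Zbtb46 at 0.123 to 0.349 FPKM over the 6 libraries. Itgax (CD11c), which macrophages express as well, lay at 19.4 to 40.4 FPKM in the knockout and 8.45 to 26.6 FPKM in the control (log2 fold change 0.79, adjusted p = 0.257). With 1 library left out its log2 fold change ran from 0.38 to 1.15, and without both knockout library 2 and control library 3 it was 0.13. Ccr7 lay at 2.33 to 5.82 FPKM in the knockout and 7.40 to 10.5 FPKM in the control, separate in the other direction (-1.08, adjusted p = 0.0553). The sum of the 10 markers, most of it Itgax and Ccr7, lay at 26.6 to 43.5 FPKM in the knockout and 20.9 to 38.5 FPKM in the control. Of these 10 genes 3 were tested, and 0 passed in limma or voom, 2 at an unadjusted p under 0.05 (27.6% of all genes) and 1 with the block. That 1, Btla, had reached the filter through the controls alone and could only fall. B cell markers summed to 11.1 to 12.2 FPKM in the knockout and 34.2 to 131 FPKM in the control. Of 7 tested genes 6 fell in limma, beside 7.31% of all genes called in either direction, and 1 in voom. In this list 5 of the 7 had reached the filter through the controls alone. Most of the knockout sum was Cd22, at 6.42 to 8.25 FPKM in the knockout and 5.395 to 9.58 FPKM in the control. Mast cell markers summed to 1.89 to 2.27 FPKM against 38.2 to 49.3 FPKM, and 5 of 5 tested genes fell in limma and in voom, all of which had reached the filter through the controls alone, so that a fall was the only direction they could show. Neutrophil markers summed to 71.2 to 201 FPKM against 195 to 459 FPKM, and 2 of 5 tested genes fell in limma and 1 in voom, where 2 of the 5 had entered through the controls alone. Without Mmp8 the neutrophil sums were separate, at 42.0 to 73.8 FPKM against 161 to 175 FPKM. The sum for small peritoneal macrophages was 508.5 to 1349 FPKM against 917 to 2394 FPKM, where 0 of 5 tested genes passed in limma or voom and 1 did at an unadjusted p under 0.05 (27.6% of all genes), namely Mgl2, which had entered through the controls alone. That for large peritoneal macrophages, in which 3 of 7 tested genes fell in limma and 2 in voom, and 3 of the 7 had entered through the controls alone, was 387 to 489 FPKM against 384 to 522 FPKM. Nearly all of it was Cd9, the 1 of the 7 with a higher mean in the knockout, and without Cd9 the sums were 4.79 to 12.1 FPKM against 45.4 to 172 FPKM, separate, with a median log2 fold change of -1.95 over the 7. No marker was at 0 in all libraries. The part of these cells in the levels of the family was not tested.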

How the data were processed

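RNA of PEMs was sequenced in 3 knockout and 3 control libraries, and groups and replicate numbers were taken from the titles. The authors deposited 1 table with FPKM per library, computed by the authors from reads per gene, gene length and library total. Group means of reads divided by DESeq2 size factors are a signal that the authors deposited beside them. From both, whole reads were recovered, with 100% of values within 0.01 reads of a whole number. The build is mm9 per the labels, and the aligner and counter are not given in the sources used here. The authors' fold changes, log2 values, p-values and q-values, from their own comparison, were not used. No per-sample column was left unused.

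The log2 of FPKM + 1 was modelled in limma 3.58.1 under R 4.3.3 (lmFit, then eBayes, trend on). A gene entered if its mean reached 1 FPKM in a group (9030 genes), with Benjamini-Hochberg adjustment and a threshold of 0.05. The main test was on FPKM, since the deposited values are not counts, and voom on the recovered reads was an alternative. The added 1 FPKM makes log2 fold changes of low genes too small. The fits were tested on simulated independent libraries, with changes larger than those of the family and no library standing apart. That test therefore does not cover these conditions of the data. Exact permutation tests were two-sided, with 0.1 as the smallest p that 3 against 3 allow. The named genes are the 5 members, the receptors, the genes of the pathway lists past the threshold, Irf1, Irf8, Rel, Il10 and Ifng, and the 3 genes most correlated with each member. Markers are given by list, and Fcgr1, Csf1r, Cd14, Adgre1, Cd68, Flt3, Zbtb46, Itgax, Ccr7, Btla, Cd9, Mmp8, Mgl2, Cd22, Lck, Cd3d, Cd3e, Cd3g, Cd4, Cd8a and Klrb1c, and Il6ra, Stat4 and Gzmb of the pathway lists, were named after their values were seen. The members and lists were chosen with earlier results of these data known. Protein sequences and the promoters of Il23a and Il27 were not analysed here, nor were Il21, Il2, Ly6g, Trac and Ncr1, and some genes were left out of the lists and are not reported here. The other list genes are given by counts and medians.

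Deviations from the group means over genes correlated at 0.109, 0.109 and 0.304 between libraries of the same number and at -0.332 to 0.291 between others, where knockout library 2 was closer to control library 1 (0.291) than to control library 2. All same-number values exceed 0.1, and the block and the same-number ratios take the numbers to pair the libraries, from this check alone. The check cannot decide the pairing, because knockout library 2 lay closer to a control library of another number. No label and no statement of the study gives a pairing. Alternatives were no filter, at least 10 reads in every library, a pseudocount of 0.1, rescaling by the median of ratios, voom, the replicate block, libraries left out, and a minimum fold. The block together with the rescaling was added after seeing the data.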

Additional observations from a re-analysis of the deposited data

How the results depend on the processing

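Of the 5 genes, Ebi3 and Il23a kept their direction and stayed short of the threshold in all 14 alternatives. With the replicate block Il12b (0.90) and Il27 (0.85) passed, and with the block and the rescaling together they passed at 1.05 and 0.995, so the number of family genes past the threshold was 2 in both cases. The block changed the call of no other member, and that of Maf, Socs3, Zfp36, Cxcl10, Nos2 and Timd4 (adjusted p = 0.0715 without and 0.0436 with it) among the other pathway and marker genes followed through the alternatives. With the rescaling added to the block, Timd4 no longer passed (adjusted p = 0.0519) and Il10 did (adjusted p = 0.0417). Il12a passed at 1.16 without both knockout library 2 and control library 3, when 1 of 5 genes passed. In that fit Il12b stood at 0.46 and Il27 at 0.32, and neither passed. Leaving out 1 library at a time, the number passing ran from 0 to 1 (1 only without control library 3) and the log2 fold change of Il12a from 0.48 to 0.96. The number of all genes past the threshold ran from 8 (without control library 2) to 1333 (without control library 3), beside 660. It was 30 without knockout library 1, 63 without knockout library 2, and 346 where a log2 change of 1 or more was also required. Why single libraries had this effect on the counts was not tested.

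Rescaling by the median of ratios moved the median over all genes from -0.11 to 0.02 (log2) and the split of calls from 232 higher and 428 lower to 342 higher and 320 lower. The log2 fold changes of Il12b, Il27, Il12a, Ebi3 and Il23a were then 1.05, 0.995, 0.84, 0.31 and 0.30, and none passed, while Stat2 (adjusted p = 0.0523) and Nfkbia (adjusted p = 0.0526) no longer passed. Without a filter 446 genes passed, Stat2, Irf4 and Nfkbia not among them (adjusted p = 0.0695, 0.0568 and 0.0634), and with voom 589.

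The exact permutation tests of the ratios cannot go below p = 0.1. The log2 difference of Il12b to Il12a ran from -0.36 to 0.60 with 1 library left out and was -0.72 without both libraries, and that of Il27 to Il12a ran from -0.48 to 0.54 and was -0.85. With 1 library left out the difference ran from -1.14 to -0.02 for Ebi3 to Il27, from 0.13 to 1.17 for Il12b to Ebi3, from -0.95 to -0.10 for Il23a to Il12a, from 0.36 to 1.06 for Il12b to Il23a and from -0.62 to -0.38 for Ebi3 to Il12a. Without both libraries Ebi3 to Il27 reversed to 0.25 and Il12b to Ebi3 to -0.12. For these reversals the cause was not tested. Il23a had few reads, at 76 to 168 per library, and several receptors and T cell products lay below the filter. The effect of depth on their results was not tested.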
